A study of Arabidopsis thaliana with 2 samples.

Results

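The genes described here encode proteins that act on NPR1, the co-activator of transcription through which salicylic acid switches on defence genes. They were chosen by gene ID, as the 5 h-type thioredoxins TRXh1 to TRXh5, the NADPH-dependent thioredoxin reductases NTRA and NTRB, the S-nitrosoglutathione reductase GSNOR1, the protein kinase SnRK2.8 and the glutaredoxin GRXC9. Of these 10 genes, 9 are among the 18345 genes of the table used here, and the level of GRXC9 was not analysed here. The samples were leaves of 2-week-old Arabidopsis thaliana plants grown in long days under 90 µmol of photons per square metre per second and then held for 24 h at 4 °C under 40. One group was the wild-type accession Col-0 and the other npr1-1, a mutant with a single base changed in NPR1, and each was represented by 1 library. Both groups had the same cold treatment, so levels are levels in the cold. The number of plants behind a library is not given in the sources used here.

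In background, NPR1 is held in the cytosol as an oligomer joined by disulfide bonds. Cytosolic thioredoxins reduce those bonds and release monomers that move to the nucleus, and thioredoxin reductases pass electrons from NADPH to the thioredoxins. S-nitrosoglutathione nitrosylates NPR1 and favours the oligomer, while GSNOR1 breaks S-nitrosoglutathione down. SnRK2.8 phosphorylates NPR1 and promotes its entry into the nucleus, and GRXC9, also known as ROXY19 or GRX480, binds the TGA factors with which NPR1 works. These steps act on NPR1 protein, whereas the data here are transcript levels.

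The thioredoxin genes share a catalytic site that a reader can compare in their coding DNA. The stretches below are read from the reference TAIR10.1, 5′ to 3′ on the coding strand, and the capitals mark the 5 codons for tryptophan, cysteine, any residue, proline and cysteine. They are shown because these cysteines carry out the reduction of target disulfides.
TRXh1 (chr3:18951408-18951452, minus strand): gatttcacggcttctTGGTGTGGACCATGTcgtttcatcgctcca
TRXh2 (chr5:15991595-15991639, minus strand): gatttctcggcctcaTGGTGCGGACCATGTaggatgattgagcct
TRXh3 (chr5:17243360-17243404, plus strand): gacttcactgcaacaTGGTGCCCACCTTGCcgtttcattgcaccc
TRXh4 (chr1:6823479-6823523, minus strand): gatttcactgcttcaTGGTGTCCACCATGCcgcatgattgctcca
TRXh5 (chr1:17075480-17075524, minus strand): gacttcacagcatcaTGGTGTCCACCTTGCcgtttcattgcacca
The codon after the first cysteine codon was GGA, for glycine, in TRXh1 and TRXh2, and CCA, for proline, in TRXh3, TRXh4 and TRXh5. Each site lay within 1 exon. In a global alignment of the coding sequences TRXh3 and TRXh5 were the closest pair of the 5, with 79.6% identical bases, and TRXh2 and TRXh3 the most distant, with 62.3%. The coding sequences of NTRA and NTRB were 81.9% identical. No transcript of the 9 genes had another annotated transcript at 90% identity or more over 50% of its length.

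The question of the comparison was whether the cold leaf transcriptome is altered in the npr1-1 mutant. Values are CPM, in which each library sums to 1000000, and whole reads were recovered from them, 50864103 for Col-0 and 50976521 for npr1-1. A ratio is the read rate in npr1-1 over that in Col-0, and its exact conditional binomial (Clopper-Pearson) 95% interval covers counting error only. Nothing here measures the spread between plants, and PCR copies are not separate molecules. The differences of the 9 genes between the 2 libraries were small, as were those of most genes. Of the 8 that reached 5 CPM in at least one library, 0 were 2-fold apart on the log2(CPM + 1) scale, where 0.73% of the 13976 genes past that minimum were, 0.2% higher in npr1-1 and 0.529% lower. At 1.5-fold the count was again 0, against 2.97% of all genes, 0.909% higher and 2.06% lower. With shares this low, most sets of 8 genes would give a count of 0. TRXh1, the gene below the minimum, was not 1.5-fold apart either. The median log2 difference of the 8 genes was -0.0043, with 4 above 0 and 4 below, and that of all genes was -0.05. Scaling by the median ratio or by a trimmed mean of log ratios raised the median of all genes by 0.04 and turned the split into 5 above 0 and 3 below.

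Before the single genes, the labels were checked. Leaf mesophyll markers, 5 genes of carbon fixation and light harvesting, summed to 36785 CPM in Col-0 against 40367 in npr1-1. They did not move together. RCA, LHCB1.3 and RBCS1A were higher in npr1-1, at ratios of 1.32, 1.15 and 1.02. LHCA3 and BCA1 were lower, at ratios of 0.900 and 0.922. Of 4 root markers PYK10 was listed, at 47.2 and 48.8 CPM, and flower and seed markers were not among the genes listed. The 3 guard cell markers summed to 51.7 and 50.6 CPM, with KAT1 lower in npr1-1 (ratio 0.801, from 0.715 to 0.897) and intervals for FAMA and MYB60 that held 1. The 4 vascular markers summed to 130 and 152 CPM, mostly from SUC2, at 105 and 120 CPM. Of these, IRX3 had a ratio of 1.58, from 1.37 to 1.83, IRX1 one of 1.27, and APL an interval that held 1. The meristem marker STM stood at 2.54 and 2.69 CPM. The part of these cell types in the differences was not tested. In bulk leaves, fewer cells of a type and less RNA per cell cannot be told apart. NPR1 itself stood at 22.0 CPM in Col-0 against 18.7 in npr1-1, a level that does not check a point mutation. PR1, the standard marker of NPR1-dependent salicylic acid signalling, had 157 reads in the Col-0 library and 1 in that of npr1-1.

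Among the members, levels can be compared only per length, as RPKM, the CPM divided by the length of the deposited gene model in kilobases. TRXh3, a thioredoxin reported to act on NPR1 together with TRXh5, was highest, at 564 RPKM in Col-0 and 539 RPKM in npr1-1. It was above 99.1% of the listed genes in Col-0 and above 98.9% in npr1-1. GSNOR1 came next, at 155 RPKM in both libraries. NTRA stood at 41.0 and 37.0 RPKM, and NTRB, the second reductase, at 24.2 and 24.6 RPKM. TRXh2 lay between the reductases, at 32.4 and 32.0 RPKM, and SnRK2.8 followed at 21.1 and 22.4 RPKM. The lower end was formed by 3 thioredoxins. TRXh5 stood at 15.1 and 11.9 RPKM, TRXh4 at 12.7 and 14.8 RPKM, and TRXh1 at 2.91 and 2.699 RPKM. The order was the same in npr1-1 except for TRXh5 and TRXh4, which changed places: TRXh5 was 1.19 times the level of TRXh4 in Col-0 and 0.806 times in npr1-1. With each library in its own order, the counting interval of the ratio of the higher to the lower neighbour lay above 1 for every pair.

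**Figure D1:**
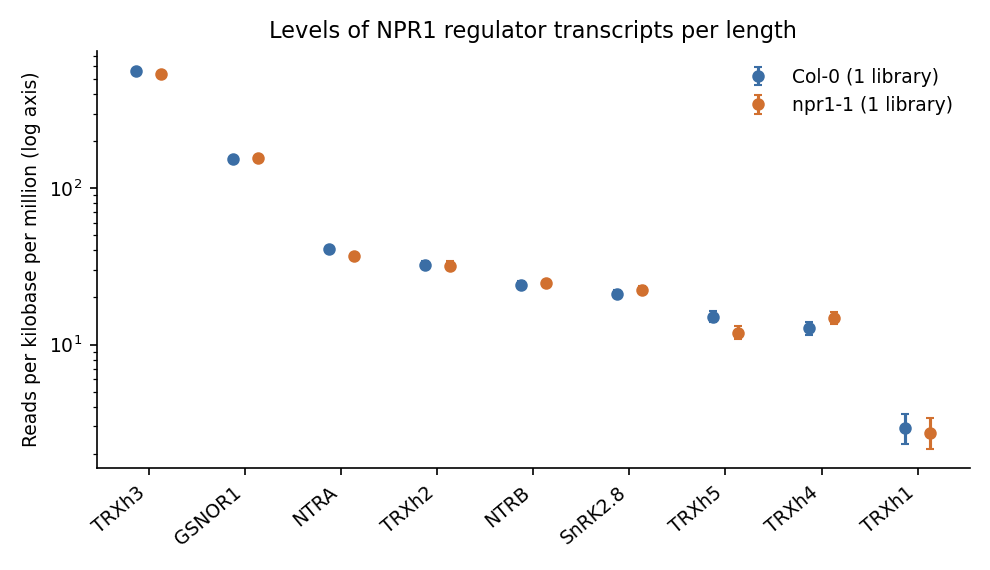
Level of 9 transcripts in RPKM (CPM per kilobase) on a log axis, in the Col-0 and the npr1-1 library, ordered by the Col-0 level; bars are exact 95% Poisson counting intervals and each point is 1 library. TRXh3 lies far above the others, at 564 in Col-0 and 539 in npr1-1, and the points of TRXh5 and TRXh4 cross.

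The pool of TRXh1 to TRXh5 was made up mostly of TRXh3. Other h-type thioredoxins are not in this pool, among them TRXh9, at 22.0 RPKM in Col-0 and 19.5 in npr1-1. Per length, TRXh3 gave 89.9% of the TRXh1 to TRXh5 total in Col-0 and 89.8% in npr1-1. TRXh2 gave 5.16% and 5.33%, TRXh5 2.402% and 1.99%, TRXh4 2.03% and 2.47%, and TRXh1 0.464% and 0.449%. The order of the shares was the same in both libraries, apart from TRXh4 and TRXh5, which changed places. Summed over the 5 genes there were 22731 reads in Col-0 against 21813 in npr1-1, which gave a ratio of 0.957, from 0.940 to 0.975. That interval is for CPM as deposited. Trimmed-mean scaling divides each ratio by 0.971, after which the interval of the sum holds 1. Without TRXh3 the sums were 2190 and 2132 reads, and the ratio was 0.971, from 0.915 to 1.03.

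TRXh5 (AT1G45145, chromosome 1, 17074942 to 17076330, minus strand, TAIR10) showed the largest difference of the 9 genes. This thioredoxin reduces NPR1 and removes nitrosyl groups from proteins, its gene responds to pathogens and salicylic acid, and it is the LIV1 locus needed for sensitivity to the fungal toxin victorin. It stood at 11.3 CPM in Col-0 against 8.98 in npr1-1, from 577 and 458 reads. The npr1-1 library was the lower one, by 20.8%. Its ratio was 0.792, from 0.699 to 0.897, and under trimmed-mean scaling 0.816, from 0.720 to 0.924. The log2 difference of -0.31 was larger in size than those of 82.9% of the genes past the minimum, which places it at rank 2384 of 13976.

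TRXh4 (AT1G19730, chromosome 1, 6822864 to 6824071, minus strand) differed in the other direction. It encodes a cytosolic thioredoxin of the same subgroup as TRXh3 and TRXh5. The Col-0 library held 459 reads, or 9.02 CPM, and the npr1-1 library 536 reads, or 10.5 CPM. With a ratio of 1.17, from 1.03 to 1.32, it was higher in npr1-1, and its interval did not overlap that of TRXh5. TRXh3 (AT5G42980, chromosome 5, 17242607 to 17243912, plus strand), with the deepest counts of the set, stood at 404 CPM in Col-0 against 386 in npr1-1. Its 20541 and 19681 reads gave a ratio of 0.956, from 0.937 to 0.975. That small distance depended on the scaling, since with the trimmed mean the ratio was 0.985 and the interval, from 0.966 to 1.004, held 1.

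TRXh2 and TRXh1 were level in the 2 libraries within counting error. TRXh2 (AT5G39950, chromosome 5, 15990687 to 15991931, minus strand), whose coding sequence of 402 bases is the longest of the 5 thioredoxins, stood at 21.0 CPM in Col-0 against 20.8 in npr1-1. Its ratio was 0.988, from 0.907 to 1.08. The sign of its log2 difference, -0.02, turned to 0.02 under both other scalings. TRXh1 (AT3G51030, chromosome 3, 18950996 to 18952050, minus strand) stood at 1.65 CPM in Col-0 against 1.53 in npr1-1. At 84 and 78 reads its ratio of 0.927 had an interval from 0.672 to 1.28, so that a difference smaller than about this range was not detectable at this depth.

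NTRA (AT2G17420, chromosome 2, 7564345 to 7566539, plus strand) and NTRB (AT4G35460, chromosome 4, 16842188 to 16844082, plus strand) encode the thioredoxin reductases of the cytosol and mitochondria and can largely stand in for each other. NTRA stood at 60.2 CPM in Col-0 against 54.3 in npr1-1, from 3064 and 2768 reads. Its ratio was 0.901, from 0.856 to 0.949. NTRB stood at 36.3 CPM in Col-0 against 36.9 in npr1-1, from 1845 and 1879 reads, with a ratio of 1.02, from 0.952 to 1.08. The interval of NTRA lay below 1 and that of NTRB held 1, and these intervals did not overlap. Over all genes past the minimum 36.8% of intervals lay below 1, and 50.8% of those genes had a smaller difference than NTRA. Per length NTRA gave 62.9% of the pair's level in Col-0 and 60.1% in npr1-1. With CPM as deposited, the pair together had a ratio of 0.945, from 0.907 to 0.983. Trimmed-mean scaling divides each ratio by 0.971, after which the interval of the pair holds 1.

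GSNOR1 (AT5G43940, chromosome 5, 17684156 to 17686534, plus strand), which the reference names HOT5, sets the level of S-nitrosoglutathione and also oxidises the formaldehyde adduct of glutathione. It stood at 223 CPM in Col-0 against 224 in npr1-1, from 11325 and 11409 reads. The libraries were nearly equal for this gene, with a ratio of 1.01 and an interval from 0.979 to 1.03. Of all genes past the minimum, 2.88% had a smaller difference. Under trimmed-mean scaling the ratio became 1.04, from 1.01 to 1.06.

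SnRK2.8 (AT1G78290, chromosome 1, 29457205 to 29459142, minus strand) encodes the kinase that phosphorylates NPR1, a member of the SnRK2 family best known from abscisic acid and osmotic stress signalling. It stood at 32.0 CPM in Col-0 against 34.0 in npr1-1, from 1629 and 1735 reads. The ratio was 1.06, from 0.993 to 1.14, and 1.09, from 1.02 to 1.17, with the trimmed mean. The other SnRK2 kinases gave a different picture. All 6 of them past the minimum had log2 differences below 0, with a median of -0.23, and 0 were 2-fold apart. Over all genes past the minimum 8240 of 13976 lay below 0.

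The intervals of SnRK2.1, SnRK2.2, SnRK2.4, SnRK2.6 and SnRK2.10 lay below 1 and did not overlap that of SnRK2.8. Over all genes past the minimum 36.8% of intervals lay below 1, and these intervals cover counting error only. SnRK2.4 stood at 75.0 CPM in Col-0 against 60.7 in npr1-1, a ratio of 0.810, from 0.772 to 0.850. SnRK2.6, also known as OST1 and the kinase that closes stomata in response to abscisic acid, stood at 35.3 and 29.0 CPM, a ratio of 0.820, from 0.765 to 0.878. SnRK2.1 stood at 61.3 and 52.9 CPM, SnRK2.2 at 57.3 and 48.4 CPM, and SnRK2.10 at 38.4 and 33.0 CPM. SnRK2.3, at 7.06 and 6.55 CPM, had an interval from 0.797 to 1.08, which overlapped that of SnRK2.8. Per length SnRK2.8 made up 10.8% of the total of the 8 SnRK2 kinases listed in Col-0 and 13.3% in npr1-1. That total includes SnRK2.5, below the minimum at 0.39 CPM in both libraries, and leaves out SnRK2.7 and SnRK2.9.

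**Figure D2:**
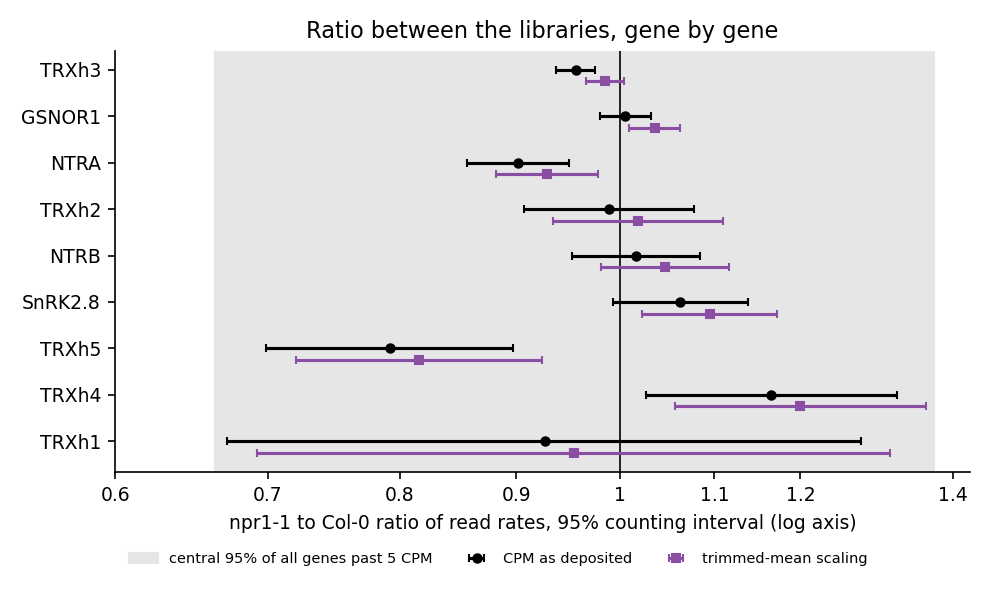
Ratio of the read rate in npr1-1 to that in Col-0 for 9 genes, on a log axis, with 95% counting intervals; circles use CPM as deposited, squares trimmed-mean scaling, and the grey band is the central 95% of ratios as deposited over the 13976 genes past the minimum. All 9 ratios lie inside the band, and the intervals of TRXh5, NTRA and TRXh4 leave out 1 under both scalings.

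Read over the set, the counting interval left out 1 for 4 of the 8 genes past the minimum, TRXh3, TRXh5 and NTRA below it and TRXh4 above it. Over all genes past the minimum 60.2% of intervals left out 1, 23.5% above it and 36.8% below it, so such an interval was common in these libraries. The central 95% of ratios over those genes ran from 0.664 to 1.37. TRXh5, at 0.792, and TRXh4, at 1.17, both lay inside it.

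Transcript length moved with the differences in these libraries. Genes of 670 to 809 bases, where TRXh3, TRXh4 and TRXh5 fall, had a median log2 difference of 0.05, and those of 1436 to 1522 bases, where NTRA, NTRB, GSNOR1 and SnRK2.8 fall, one of -0.04. After the bin median was subtracted, TRXh5 had -0.36, NTRA -0.11, TRXh3 -0.12 and TRXh4 0.15, each with the sign it had before. TRXh2, in the shortest bin with a median of 0.11, had -0.13. The part of length in the differences was not tested.

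**Figure D3:**
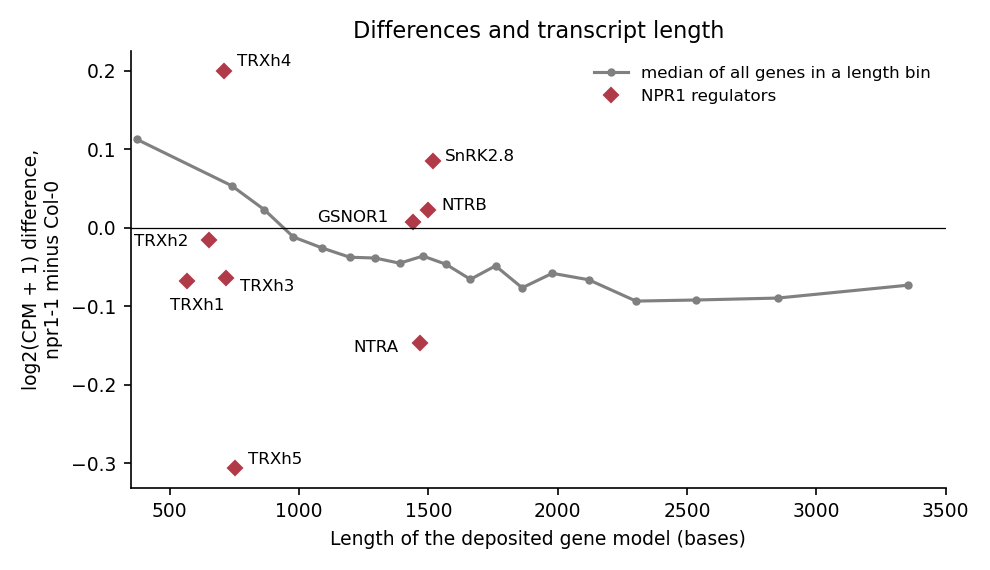
Difference in log2(CPM + 1), npr1-1 minus Col-0, against the length of the deposited gene model in bases; grey points are medians over all genes past the minimum in 19 of 20 length bins (the longest is not drawn), diamonds the 9 NPR1 regulators. The medians fall from 0.11 in the shortest bin, and TRXh5 and TRXh4, of similar length, lie on opposite sides of them.

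Neighbouring genes share bases with some of these models, and the use of strand in the counting is not given in the sources used here. Among the deposited models, SnRK2.8 shares 169 bases with AT1G78280, GSNOR1 35 bases with AT5G43950 and TRXh2 15 bases with AT5G39940, all on the opposite strand. AT1G78280 stood at 13.3 CPM in Col-0 against 9.77 in npr1-1, which is the opposite direction to SnRK2.8. In other annotated models, TRXh3 shares 245 bases with AT5G42990 on the opposite strand and TRXh1 shares 37 bases with AT3G51040 on its own strand. TRXh4, TRXh5, NTRA and NTRB had no overlapping gene.

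The promoters of TRXh5 and TRXh3 are shown because these genes are the closest in coding sequence and differ in how far apart the libraries were. Each run is the 250 bases before the RefSeq gene start in TAIR10.1, 5′ to 3′ on the gene's strand, and the capitals mark TGACG, the core bound by TGA factors, and TTGAC, the core bound by WRKY factors, on either strand.
TRXh5 (chr1:17076418-17076667, minus strand): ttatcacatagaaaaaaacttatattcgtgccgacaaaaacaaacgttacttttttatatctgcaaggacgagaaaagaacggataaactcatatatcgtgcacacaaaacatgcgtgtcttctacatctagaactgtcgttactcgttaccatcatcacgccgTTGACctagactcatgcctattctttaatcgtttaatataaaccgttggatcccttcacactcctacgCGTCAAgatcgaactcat
TRXh3 (chr5:17242357-17242606, plus strand): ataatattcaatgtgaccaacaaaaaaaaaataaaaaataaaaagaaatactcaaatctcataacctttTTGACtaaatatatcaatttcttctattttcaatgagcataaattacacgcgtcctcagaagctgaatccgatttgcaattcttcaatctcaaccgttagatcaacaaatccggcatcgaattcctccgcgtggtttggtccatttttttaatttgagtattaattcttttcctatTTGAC
In TRXh5 the last capitals hold both cores on the reverse strand, which overlap there. Over the window from 250 bases before to 50 after the start, on both strands, TGACG was found for TRXh5, SnRK2.8 and GRXC9, 3 of the 10 genes, and in 23.1% of 27443 promoters of protein-coding genes. TTGAC was found for 6 of the 10 and in 50.5% of those promoters. CCGAC, the core of the cold-responsive element bound by CBF factors, was found for TRXh5 and GSNOR1 and in 15.0% of promoters. ACGTG, the core of the abscisic acid responsive element, was found for GRXC9 and in 26.7%. The heat shock element unit, GAA and TTC with 2 bases between, was found for none of the 10 and in 11.6%. A match is a run of letters and not a site of binding.

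Among genes for other proteins reported to modify NPR1 or to control its turnover, 8 passed the minimum and 0 were 2-fold apart. Of these 8, 7 had log2 differences below 0, where 8240 of all 13976 genes did, and 5 had intervals below 1, where 36.8% of all genes did. Their median was -0.20, and -0.11 with the length bin median subtracted or with a minimum of 1 CPM. PKS5, a kinase that phosphorylates NPR1, stood at 6.45 CPM in Col-0 against 4.30 in npr1-1. Its ratio was 0.666, from 0.559 to 0.793. AT2G30362 is annotated over nearly all of its bases on the opposite strand. Since the use of strand in the counting is not given, its reads may include those of that gene. NPR3, a salicylic acid receptor and adaptor of the CUL3 ligase, stood at 8.34 and 6.02 CPM, a ratio of 0.722, from 0.622 to 0.839. The cullins CUL3A, at 50.3 and 43.2 CPM, and CUL3B, at 15.2 and 12.2 CPM, had intervals below 1, as had the ubiquitin chain factor UBE4, at 76.8 and 67.7 CPM. HOS15, UBP6 and UBP7 had intervals that held 1, with UBP6, a ubiquitin protease, at 91.0 and 89.9 CPM. HOS15 and UBP6 lay below 0 as deposited and above 0 under both other scalings. Below the minimum, NPR4 stood at 4.93 and 4.83 CPM and SUMO3, the modifier attached to NPR1, at 1.02 and 1.18 CPM.

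The related redox families had 0 genes 2-fold apart as well, and their medians kept their sign under both other scalings. Among 4 other non-plastid thioredoxins past the minimum the median log2 difference was -0.07, with TRXh9, CXXS1 and TRXo2 at -0.17, -0.11 and 0.15. The plastid thioredoxin system, which the chloroplast uses to adjust enzymes to light, had 12 of 13 genes below 0, 9 of them with an interval below 1, and a median of -0.15. The shares over all genes, 8240 of 13976 below 0 and 36.8% with an interval below 1, also apply to the lists that follow. TRXf2, TRXm2 and TRXm1 led the plastid genes past the minimum, with TRXf2 at 33.2 CPM in Col-0 against 25.5 in npr1-1. TRXm2 and TRXm1 were both at -0.23. Glutaredoxins of the other classes had 8 of 10 below 0 and a median of -0.05, led by GRXC1, GRXC2 and GRXC3 at -0.28, -0.20 and -0.19. That count also depends on the scaling, since GRXC5, GRXS17 and GRXS12 lay at -0.02, -0.02 and -0.001. Of 20 CC-type glutaredoxins, the class of GRXC9, 7 passed the minimum, with a median of 0.11 and 6 above 0. With the length bin median subtracted the median was 0.02, and GRXS11 had -0.007. GRXS4 had 0.56 and GRXC13 -0.51, from 6.98 and 10.8 CPM and from 7.73 and 5.14 CPM, and GRXS7 had 0.36. GRXC13 shares 243 bases with AT2G47885, annotated on the opposite strand. In the glutathione and nitric oxide list 6 of 9 were below 0 and the median was -0.10. GSH2, glutathione synthetase, stood at 70.3 and 52.9 CPM.

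Set beside these, the salicylic acid outputs of NPR1 were further apart. NPR1 and 3 outputs passed the minimum, all 4 lower in npr1-1 with a median of -0.80. Of these, 2 were at least 2-fold lower, where 0.529% of all genes past the minimum were. PR1, at 3.09 CPM in Col-0 and 0.02 in npr1-1, lay below the minimum and is not in these counts. PR2, a glucanase, stood at 12.6 CPM in Col-0 against 2.94 in npr1-1, a ratio of 0.234, from 0.194 to 0.280. PR5, a thaumatin-like protein, stood at 79.5 and 37.8 CPM, and WRKY70, a regulator of salicylic acid responses, at 6.63 and 4.20 CPM. None of the 9 NPR1 regulators had an interval that reached those of PR2 or PR5. The interval of WRKY70, from 0.531 to 0.754, overlapped those of TRXh5 and TRXh1. NIMIN2, an output of the same list below the minimum, had an interval from 0.562 to 0.902. It overlapped those of TRXh5, TRXh1 and NTRA.

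**Figure D4:**
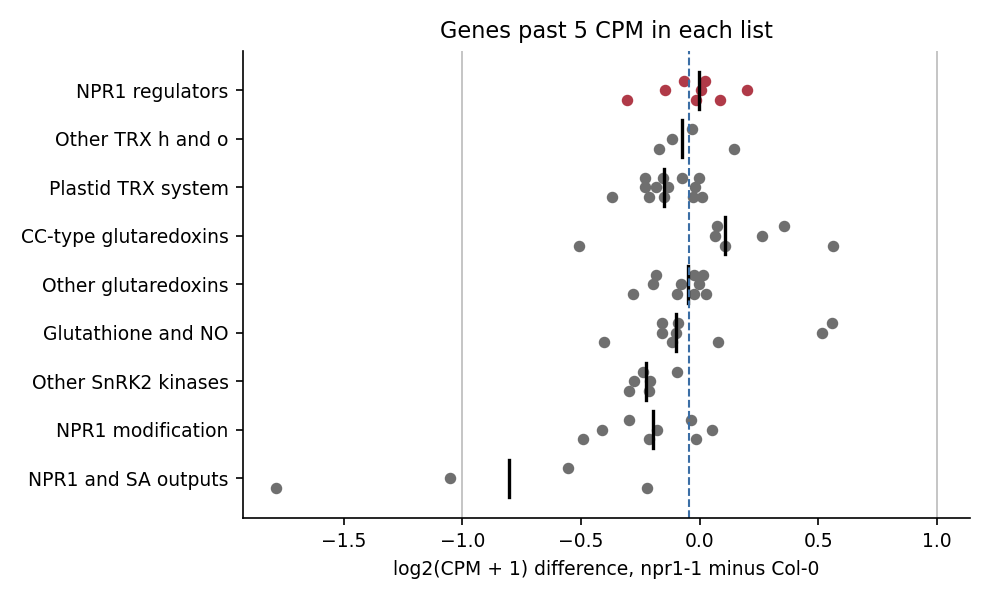
Difference in log2(CPM + 1), npr1-1 minus Col-0, of each gene past 5 CPM in 9 lists; each point is a gene, black bars are list medians, the dashed line is the median of all genes (-0.05) and grey lines mark 2-fold. The NPR1 regulators, in red, lie between -0.31 and 0.20, and the genes past 2-fold are PR2 and PR5.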

How the data were processed

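RNA of leaves of 1 Col-0 and 1 npr1-1 library was sequenced. Per the file headers the deposited values are CPM, with commas as decimal marks, summing to 1000000 over 18345 genes. The submitters' processing notes name TopHat2, DESeq2 and TAIR10, giving neither their role nor a version. For the read counter, its use of strand and the choice of genes, the method is not given in the sources used here. All values (100% within 0.01) were whole multiples of 1 read, which gave the reads and a depth of 254 to 255 reads at 5 CPM. The minimum was 5 CPM in at least one library, the pseudocount 1 CPM and the length that of the deposited model. With 1 library per genotype there was no replicate check and no test; reads gave exact 95% intervals, for counting error only.

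Members and lists were chosen with earlier results of these data known. Named are all members, the 3 genes farthest from 0 in each list past the minimum, all NPR1 modification genes, SnRK2 kinases past the minimum, NPR1, PR1 and PR2; other genes were named after their values were seen. No list ID was dropped for a contradicting reference name. Sequences come from RefSeq TAIR10.1. Of deposited models that are 1 open reading frame, 119 of 121 on chromosome 1 began and ended with start and stop codons there, and the other chromosomes were alike. Copies were sought with BLAST+ 2.17.0. Calculations used Python 3.11.15, numpy 2.4.6, pandas 2.3.3, scipy 1.17.1, Biopython 1.88 and matplotlib 3.10.9. Intervals and calls were tested on simulated data with counting error only, which is the error that the intervals assume. That check does not cover the spread between plants. Alternatives were other scalings, pseudocounts, minimums, folds and a length correction.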

Additional observations from a re-analysis of the deposited data

How the results depend on the processing

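The count of 0 members at least 2-fold apart held under all 10 other settings, including folds of 1.5 and 4 and no minimum. Not all of them could have changed it. A fold of 4 cannot raise a count of 0, and leaving out members with a near copy removed no gene. The median log2 difference of the members ranged from -0.03, with the length bin median subtracted, to 0.04, under both other scalings, where it lay above 0, and was -0.03 as a mean. Of 45 values of single members under other settings 40 stayed within the counting interval and 5 moved beyond it, for TRXh3 and GSNOR1, where the counting error is smallest; 0 turned sign where the interval left out 1. Members whose interval left out 1 numbered 4 with CPM as deposited and 5 under each other scaling, a comparison chosen after seeing the data: TRXh3 left that group, and GSNOR1 and SnRK2.8 joined it. List medians kept their sign but differed in size between settings: 0.02 (length) to 0.14 for CC-type glutaredoxins, -0.09 to -0.0089 (scalings) for other glutaredoxins, -0.11 to -0.04 for other non-plastid thioredoxins, -0.17 to -0.11 for the plastid system, -0.10 to -0.06 for glutathione and nitric oxide, -0.23 to -0.18 for SnRK2 kinases, -0.20 to -0.11 for NPR1 modification and -0.86 to -0.66 for NPR1 and its outputs. No paired analysis was possible because each genotype has 1 library, and for the same reason none could be left out. Depth limits TRXh1 most, while the spread between plants was not measured for any gene.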

Other observations

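A pair of gene groups beside the NPR1 regulators was higher in npr1-1, and both were picked after their values were seen. The nitrate reductases NIA1 and NIA2, which reduce nitrate in the cytosol and can also yield nitric oxide, were higher in npr1-1, as was NOA1 at a smaller ratio of 1.06, from 1.01 to 1.103, while the other 6 genes of the glutathione and nitric oxide list past the minimum were lower. NIA2 stood at 888 CPM in Col-0 against 1271 in npr1-1, and NIA1 at 126 and 185 CPM. Their ratios were 1.43, from 1.41 to 1.45, and 1.47, from 1.43 to 1.52. Both lay above the central 95% of ratios over all genes past the minimum, which ended at 1.37.

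The other group was a run of CC-type glutaredoxin genes that lie side by side on chromosome 4, GRXS8, GRXS7, GRXS4, GRXS5 and GRXS3, from 8925806 to 8937892 in TAIR10. GRXS8 and GRXS5 lay below the minimum of 5 CPM and are included here. All 5 had more reads in npr1-1, GRXS8 with 135 reads in Col-0 and 237 in npr1-1, GRXS7 with 222 and 299, GRXS4 with 355 and 549, GRXS5 with 155 and 241, and GRXS3 with 211 and 264. Their transcripts resemble one another, with up to 88.05% identity, found over 318 bases for GRXS8 and GRXS5, which leaves the assignment of reads to each gene uncertain. Their sum was 1078 reads in Col-0 against 1590 in npr1-1, which gave a ratio of 1.47, from 1.36 to 1.59. All 5 fall in the shortest length bin, whose median log2 difference was 0.11. With it subtracted, GRXS8 had 0.52, GRXS4 0.45, GRXS5 0.39, GRXS7 0.24 and GRXS3 0.15. GRXC13, a gene of the same class on chromosome 2, went the other way, with 393 and 262 reads. It shares 243 bases with AT2G47885, annotated on the opposite strand, and the use of strand in the counting is not given.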
